A study of Mus musculus with 8 samples.

Results

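The 37 genes described here encode the enzymes that build sterols and fatty acids, the proteins that regulate those enzymes, and carriers that move sterols within and out of the cell. They were taken from a list of symbols, and each was read from the probe sets that the array annotation assigns to that symbol alone. Each gene is represented by its brightest probe set by mean signal over the 8 arrays, and its other probe sets served as a check. The 37 genes have 88 probe sets among the 18193 genes with such a probe set. Of the 37, 34 passed a filter that asked for a signal above the array's median on at least 2 of 8 arrays, which left 11217 genes in all. These 34 lay above the median on all 8 arrays, so none of them passed through 1 group alone. Acacb, Scd1 and Fads2 did not pass and are given by their signals at the end.

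Cholesterol is made from acetyl-CoA through the mevalonate pathway, which yields isoprenoid units that are joined to squalene and then closed and trimmed to cholesterol. Fatty acids are built from the same acetyl-CoA by acetyl-CoA carboxylase and fatty acid synthase, then lengthened by elongases and given double bonds by desaturases. Transcription of both sets of enzymes is driven by the sterol regulatory element binding proteins (SREBPs), which SCAP escorts from the endoplasmic reticulum when sterols are low and INSIG proteins hold back when sterols are high. T cells that divide draw on both pathways for membrane, and mTOR kinase complexes are among the known activators of SREBPs.

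The study compared memory CD4 T cells of mice at day 60 after infection with LCMV Armstrong, a virus strain that mice normally clear. The cells were T follicular helper (Tfh) cells, the helpers of antibody responses, and T helper 1 (Th1) cells, the main CD4 source of interferon gamma. The labels name the cells of each sample as Rictor-null or wild-type (WT). Rictor encodes an obligate subunit of mTOR complex 2. The 4 groups, Rictor-null Tfh, WT Tfh, Rictor-null Th1 and WT Th1, had 2 Affymetrix arrays each, every array holding RNA pooled from at least 10 mice. The labels name spleen as the source and describe the cells as polyclonal. The sort gates, the Rictor allele, any Cre driver, and the age and sex of the mice are not stated in the sources used here. Because each array is a pool, p-values measure the spread between pools and not between mice, and a lower signal from fewer cells of a kind cannot be told apart from less RNA per cell.

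The signals are fluorescence values on a linear scale, with array medians of 35.7 to 37.7. Each array correlated with the other of its group at r = 0.995 to 0.999 across genes. Rictor, read by its brightest probe set, had signals of 563 and 576 for Rictor-null Tfh, 560.3 and 563 for WT Tfh, 493 and 474 for Rictor-null Th1 and 468 and 556 for WT Th1. Its differences were 0.02 ± 0.0742 in Tfh (adjusted p = 0.887) and -0.07 ± 0.0742 in Th1 (adjusted p = 0.585). The position of the probes relative to the deletion is not stated, so this does not check the genotype labels. Of 8 Tfh markers, 6 were higher in Tfh than in Th1 in each genotype, at adjusted p under 0.05 in limma. Icos passed in neither, and Cd200 went the other way in Rictor-null cells, lower in Tfh with -0.48. Among the 6, Cxcr5 (179 to 296.5 on the 4 Tfh arrays, 46.8 to 55.7 on the 4 Th1 arrays) and Bcl6 (138 to 192 against 89.9 to 94.5) separated the cell types. The Th1 list did not: Tbx21, which encodes the Th1 factor T-bet, lay between 422 and 465 on all 8 arrays, and 0 of 8 tested Th1 markers were lower in WT Tfh than in WT Th1 cells, at adjusted or unadjusted p under 0.05 in limma. In WT cells Gzmb and Nkg7 were higher in Tfh than in Th1, and in Rictor-null cells Nkg7 was higher and Prdm1 and Id2 were lower. Of 9 B and plasma cell markers with a probe set, Cd79a, Ms4a1, Pax5, Ebf1, Blnk and Jchain were below the filter. Cd22 (298 to 352 on Tfh arrays, 133 to 246 on Th1 arrays), Cd79b and Sdc1 passed it, and Cd22 was higher in Tfh than in Th1 in both genotypes. On the third principal component (18.3% of the variance), replicate 2 of Rictor-null Tfh (-12.4) and replicate 1 of WT Th1 (-6.51) stood apart.

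Differences below are between group means of log2(signal + 32), a scale that understates the change of dim probe sets. Each is given with its standard error (SE, n = 2 arrays per group) from a limma fit to all 8 arrays, and adjusted p-values are Benjamini-Hochberg values over all 11217 genes. The words rose and fell are kept for adjusted p under 0.05, with the second-named group as the baseline. An exact permutation test of 2 arrays against 2 has a smallest two-sided p of 0.333 and was not run. Signals of one probe set are not compared with those of another.

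In Tfh cells, 9 of the 34 genes rose in Rictor-null relative to WT and 1 fell, where 11.3% of all genes tested rose and 2.28% fell (13.6% in either direction). The 9 were Scd2, Cyp51, Abca1, Abcg1, Elovl6, Fdps, Ebp, Elovl5 and Pmvk, and the 1 was Fads1. The median difference of the 34 was 0.17, against 0.04 over all genes, and 29 of the 34 were positive. Both Rictor-null arrays lay above both WT arrays for 26 of the 34, where 39.9% of all genes did so, and below them for 3, where 19.7% did.

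In Th1 cells, 9 genes rose in Rictor-null relative to WT and 1 fell, where 7.54% of all genes rose and 2.97% fell (10.5% in either direction). Scd2, Elovl6, Cyp51, Hmgcs1, Sc5d, Acly, Nsdhl, Abca1 and Insig1 rose, and Fads1 fell. The median of the 34 was 0.04, against 0.00 over all genes, with 21 positive. Over all genes, 34.7% were positive in both cell types and another 15.3% were positive in Th1 and negative in Tfh. Here 15 of 34 had both Rictor-null arrays above both WT arrays and 7 had both below, where 28.3% and 27.7% of all genes did. The Tfh and the Th1 comparison share no array, but their SEs come from 1 fit to all 8 arrays, so their calls are not independent. Scd2, Cyp51, Elovl6, Abca1 and Fads1 were called in both, in the same direction, 5 genes were called in Tfh alone and 5 in Th1 alone. The share of all genes called in both was not counted.

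WT Tfh was the group with the lowest mean for 21 of the 34 genes, and WT Th1 for 7. Rictor-null Tfh had the highest mean for 14 and Rictor-null Th1 for 11. Within the 11 enzymes from squalene to cholesterol, WT Tfh was lowest for 10, with Dhcr7 the exception, and Rictor-null Tfh and Rictor-null Th1 were each highest for 5. The same counts were not made over all genes, of which 48.0% had both WT Tfh arrays below both WT Th1 arrays. For 39.9% of all genes both WT Tfh arrays lay below both Rictor-null Tfh arrays.

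**Figure D1:**
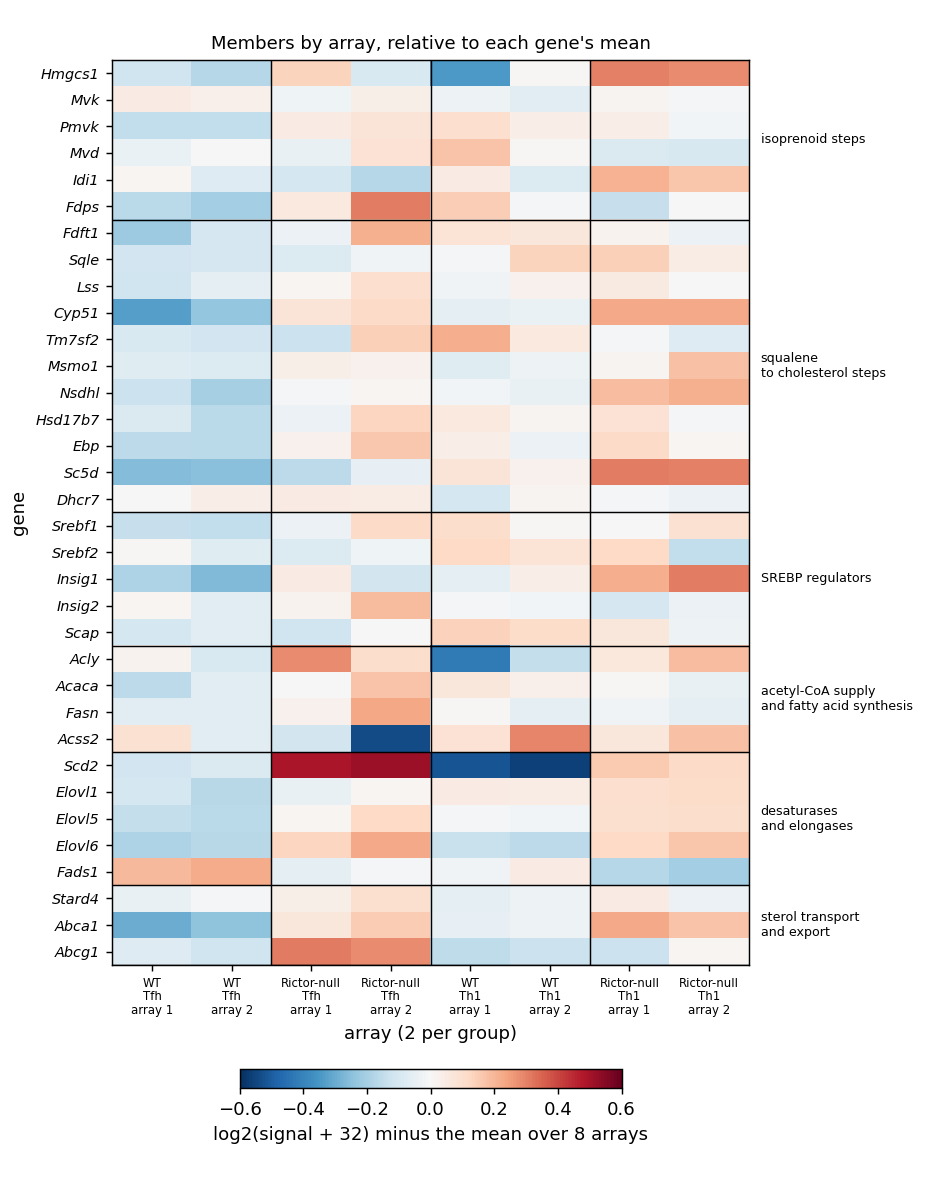
Each row is 1 of the 34 genes that passed the filter, grouped by role, and each column is 1 array. Colour shows log2(signal + 32) minus the gene's mean over the 8 arrays, from blue (lower) to red (higher). The WT Tfh columns are blue for most sterol genes, Scd2 is red in Rictor-null Tfh and blue in WT Th1, and Acss2 is dark blue on Rictor-null Tfh replicate 2 alone.

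Markers of cell types and of cell division also differed between genotypes. The summed signal of the 8 Tfh markers was 5946 to 6072 for Rictor-null Tfh against 4089.6 to 4194 for WT Tfh, and 4282 to 4448 for Rictor-null Th1 against 3186 to 3274 for WT Th1. All 8 Tfh markers rose with the Rictor-null genotype in Tfh cells and 6 of 8 did in Th1 cells. Of 8 Th1 markers, Gzmb, which encodes granzyme B, rose in Rictor-null Tfh by 0.73 and in Rictor-null Th1 by 1.28, Prdm1 rose in Rictor-null Th1 by 0.32, and none fell in either cell type. Of the lists of other cell types, Eomes, Cd8b1 and Cd68 rose and Fcgr1 and Epor fell in Rictor-null Tfh, and Cd22 fell in Rictor-null Th1. Of 19 proliferation genes tested, 3 rose in Rictor-null Tfh (Birc5, Mki67 and Top2a), or 15.8% where 11.3% of all genes rose, and 8 in Rictor-null Th1, or 42.1% where 7.54% of all genes rose. Their medians were 0.13 and 0.18. Mki67, a marker of cycling cells, had a difference of 0.28 in Tfh and 0.63 in Th1. The part of any of these in the differences of the sterol and fatty acid genes was not tested.

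The first steps of the mevalonate pathway turn acetyl-CoA into isoprenoid units. Of 6 genes tested, 2 rose in Rictor-null Tfh (Fdps and Pmvk) and 1 in Rictor-null Th1 (Hmgcs1), where 11.3% and 7.54% of all genes rose. Hmgcs1 encodes the cytosolic HMG-CoA synthase, an early enzyme of the mevalonate pathway. Its signals were 364 and 359 for Rictor-null Th1, 222 and 291 for WT Th1, 321 and 269.9 for Rictor-null Tfh and 264 and 254 for WT Tfh. The Rictor-null Th1 arrays were above the other 6, and the WT Th1 arrays differed widely from each other. The difference in Th1 cells was 0.46 ± 0.105, adjusted p = 0.0179, and in Tfh cells 0.17 ± 0.105, adjusted p = 0.309. Without WT Th1 replicate 1 the Th1 difference was 0.29 (adjusted p = 0.134). In a fit over all 23725 kept probe sets, 3 of the other 4 Hmgcs1 probe sets also rose in Th1 cells, with 0.31, 0.54 and 0.40, and the fourth had 0.29 (adjusted p = 0.0544). The brightest Hmgcs1 probe set carries the maker's suffix for probes that also match other transcripts, as do those of Acly, Elovl5, Elovl1, Fdft1 and Hsd17b7.

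Fdps encodes farnesyl diphosphate synthase, which feeds both squalene and protein prenylation. It had signals of 115 and 143 for Rictor-null Tfh, 94.3 and 90.9 for WT Tfh, 96.5 and 109.6 for Rictor-null Th1 and 125 and 108 for WT Th1. Both Rictor-null Tfh arrays exceeded both WT Tfh arrays, whereas the Th1 groups overlapped. Fdps rose in Tfh cells by 0.37 ± 0.0884 (adjusted p = 0.0218) and had -0.14 ± 0.0884 in Th1 cells (adjusted p = 0.378). Without Rictor-null Tfh replicate 2 the Tfh difference was 0.24 with adjusted p = 0.125.

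Pmvk, the kinase that adds the second phosphate to mevalonate, had 89.6 and 92.1 for Rictor-null Tfh and 74.4 on both WT Tfh arrays. In Th1 cells it had 89.2 and 84.6 in Rictor-null and 94.1 and 89.2 in WT. WT Tfh was thus the low group, below the other 6 arrays. Pmvk rose in Rictor-null Tfh by 0.21 ± 0.0558 (adjusted p = 0.0348) and was lower in WT Tfh than in WT Th1, with -0.22 (adjusted p = 0.03). Its difference between genotypes in Th1 cells was -0.06 (adjusted p = 0.579).

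Idi1, the isomerase that interconverts the isoprenoid building blocks, had 161 and 156 for Rictor-null Th1, 141 and 126 for WT Th1, 123 and 117 for Rictor-null Tfh and 137 and 127 for WT Tfh. Rictor-null Th1 was the highest group and Rictor-null Tfh the lowest. Idi1 was lower in Rictor-null Tfh than in Rictor-null Th1, with -0.33 ± 0.0648 (adjusted p = 0.0106), and its genotype differences of -0.11 in Tfh and 0.20 in Th1 did not pass (adjusted p = 0.293 and 0.0742). Mevalonate kinase (Mvk) and mevalonate diphosphate decarboxylase (Mvd) passed in none of the comparisons, with signals of 55.3 to 79.6 over both genes and all arrays.

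The 11 enzymes from squalene synthesis to cholesterol were all tested, and 2 rose in Rictor-null Tfh (Cyp51 and Ebp) and 3 in Rictor-null Th1 (Cyp51, Sc5d and Nsdhl). Of all genes tested, 11.3% and 7.54% rose in these comparisons. In Tfh cells all 11 differences were positive, from 0.03 for Dhcr7 to 0.38 for Cyp51. Both Rictor-null arrays lay above both WT arrays for 10 of 11, where 39.9% of all genes did so. In Th1 cells 9 were positive and 4 had both Rictor-null arrays above both WT arrays, where 28.3% of all genes did.

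Cyp51 encodes lanosterol 14-alpha demethylase, the first enzyme after lanosterol on the way to cholesterol. Its signals were 96.0 and 99.3 for Rictor-null Tfh and 64.5 and 71.1 for WT Tfh, and 110.0 and 109.9 for Rictor-null Th1 and 84.8 and 85.8 for WT Th1. The 4 groups did not overlap and ran from WT Tfh through WT Th1 and Rictor-null Tfh to Rictor-null Th1. Cyp51 rose by 0.38 ± 0.0573 in Tfh (adjusted p = 0.00167) and by 0.27 ± 0.0573 in Th1 (adjusted p = 0.0112). A dimmer Cyp51 probe set had 0.28 in Tfh (adjusted p = 0.0565) and 0.57 in Th1 (adjusted p = 0.00229).

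Sc5d, a sterol desaturase near the end of the pathway, had 247 and 245 for Rictor-null Th1, 206 and 197 for WT Th1, 169.8 and 185 for Rictor-null Tfh and 156 and 157 for WT Tfh. The groups were again ordered without overlap, with both Th1 groups above both Tfh groups. Sc5d rose in Rictor-null Th1 by 0.25 ± 0.0587 (adjusted p = 0.0191) and had 0.15 ± 0.0587 in Tfh (adjusted p = 0.109). It was lower in Tfh than in Th1 cells in WT, with -0.31 (adjusted p = 0.00972), and in Rictor-null, with -0.41 (adjusted p = 0.00164). Its other kept probe set, with signals of 20.0 to 42.9, had 0.09 between genotypes in Th1 cells and did not pass.

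Nsdhl, a dehydrogenase in the removal of the methyl groups at carbon 4 of the sterol ring, had 165 and 169 for Rictor-null Th1, 139 and 136 for WT Th1, 139.6 and 143 for Rictor-null Tfh and 126 and 119 for WT Tfh. Rictor-null Th1 was highest and WT Tfh lowest. The gene rose in Rictor-null Th1 by 0.23 ± 0.0557 (adjusted p = 0.0236) and had 0.17 ± 0.0557 in Tfh (adjusted p = 0.0752).

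Ebp, the isomerase that shifts the ring double bond, had 635 and 701 for Rictor-null Tfh, 556 and 555 for WT Tfh, 678 and 629 for Rictor-null Th1 and 641 and 609 for WT Th1. WT Tfh was below the other 6 arrays. Ebp rose in Tfh cells by 0.25 ± 0.0661 (adjusted p = 0.0307). The other 7 genes of the segment, Fdft1 (squalene synthase), Sqle (squalene epoxidase), Lss (lanosterol synthase), Tm7sf2, Msmo1, Hsd17b7 and Dhcr7, passed in none of the comparisons. Their differences between genotypes ran from 0.03 to 0.25 in Tfh cells and from -0.18 to 0.15 in Th1 cells.

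SREBPs act at sterol regulatory elements that commonly lie near sites for the factors NF-Y and Sp1. Whether SREBPs had a part in any difference, or whether genes moved together, was not tested. Picked by their Th1 calls, the promoters of the 4 sterol synthesis genes that rose in Th1 cells, and of Insig1, are shown. They are the 250 bases before the annotated start in the RefSeq promoter table (GRCm38.p6), 5′ to 3′ on the gene's strand. Capitals mark matches on either strand to 4 motifs. The NF-Y motif is CCAAT, whose opposite strand reads ATTGG. The Sp1 motif searched for was GGGCGG, and its opposite strand reads CCGCCC. An E-box, which SREBPs can also bind, was searched for as CACGTG, the same on both strands. The sterol regulatory element was searched for as TCACNCCAC on both strands. No 2 matches overlap in these 5 sequences.
Hmgcs1, chr13:119690101-119690350, plus strand: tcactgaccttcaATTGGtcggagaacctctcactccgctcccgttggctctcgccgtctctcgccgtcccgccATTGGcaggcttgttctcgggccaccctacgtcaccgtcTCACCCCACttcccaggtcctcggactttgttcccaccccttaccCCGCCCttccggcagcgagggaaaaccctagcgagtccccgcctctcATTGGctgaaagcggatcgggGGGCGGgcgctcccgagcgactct
Cyp51, chr5:4104698-4104947, minus strand: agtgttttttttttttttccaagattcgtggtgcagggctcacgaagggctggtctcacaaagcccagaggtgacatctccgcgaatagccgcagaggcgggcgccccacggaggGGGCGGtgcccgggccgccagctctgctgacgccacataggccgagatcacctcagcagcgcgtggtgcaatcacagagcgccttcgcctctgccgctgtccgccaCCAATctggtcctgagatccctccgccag
Nsdhl, chrX:72918271-72918520, plus strand: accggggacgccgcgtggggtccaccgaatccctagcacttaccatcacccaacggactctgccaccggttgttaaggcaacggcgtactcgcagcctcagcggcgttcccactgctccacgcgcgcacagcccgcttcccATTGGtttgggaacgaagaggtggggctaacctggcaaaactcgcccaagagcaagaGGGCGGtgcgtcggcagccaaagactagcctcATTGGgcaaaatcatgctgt
Sc5d, chr9:42264301-42264550, minus strand: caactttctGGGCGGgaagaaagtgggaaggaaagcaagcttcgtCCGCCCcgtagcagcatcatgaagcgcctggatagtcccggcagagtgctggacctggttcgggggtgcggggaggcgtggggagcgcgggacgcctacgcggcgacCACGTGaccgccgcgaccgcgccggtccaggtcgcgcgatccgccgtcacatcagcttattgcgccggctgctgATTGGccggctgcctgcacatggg
Insig1, chr5:28071162-28071411, plus strand: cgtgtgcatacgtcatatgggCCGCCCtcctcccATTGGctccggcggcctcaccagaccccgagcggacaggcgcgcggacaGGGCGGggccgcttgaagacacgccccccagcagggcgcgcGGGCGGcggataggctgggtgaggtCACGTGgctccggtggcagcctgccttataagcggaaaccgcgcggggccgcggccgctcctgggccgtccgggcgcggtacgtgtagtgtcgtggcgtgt

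Of the 37 genes, 29 had an entry in the promoter table. A gene with several starts was counted where any of them held the motif. The exceptions were Fads1, Stard4, Scd1, Scd2, Fdps, Sqle, Fdft1 and Abcg1. CCAAT was found for 14 of 14 sterol synthesis genes with an entry, for 5 of 9 fatty acid genes and for 4 of 6 regulators and carriers, against 40.0% of the 9083 genes tested on the arrays that had an entry and 37.5% of all 27025 genes of the table. GGGCGG was found for 13 of the 14 sterol synthesis genes, against 62.8% of the genes tested and 35.4% of all. TCACNCCAC was found for Hmgcs1 alone among the 29, against 1.29% of the genes tested. CACGTG was found for 7 of the 29 (Hsd17b7, Sc5d, Dhcr7, Insig1, Scap, Elovl5 and Abca1), against 10.1% of the genes tested. A match describes the letters in the window and does not show that a factor binds there. Sterol synthesis genes that did not pass, such as Mvk, Lss and Dhcr7, held CCAAT as well.

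Of the 5 regulators of SREBP, 1 passed in any comparison: Insig1, which retains SCAP in the endoplasmic reticulum and is itself a target of SREBP. It had 457 and 487 for Rictor-null Th1, 372 and 399 for WT Th1, 402 and 357 for Rictor-null Tfh and 338 and 317 for WT Tfh. The 2 Rictor-null Th1 arrays were above all others and the 2 WT Tfh arrays below all others. Insig1 rose in Rictor-null Th1 by 0.27 ± 0.071 (adjusted p = 0.0349), had 0.19 ± 0.071 in Tfh (adjusted p = 0.0974), and was lower in Rictor-null Tfh than in Rictor-null Th1, with -0.29 (adjusted p = 0.0269). Of all genes, 7.54% rose in the Th1 genotype comparison.

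Srebf1, which encodes the SREBP that favours fatty acid genes, had 318 and 356 for Rictor-null Tfh, 294 and 292 for WT Tfh, 327 and 351 for Rictor-null Th1 and 354 and 329 for WT Th1. WT Tfh was lowest, and the other 3 groups overlapped, with adjusted p = 0.101 for the Tfh genotype difference of 0.18. Srebf2, which encodes the SREBP that favours sterol genes, had 125 and 131, 135 and 126, 148 and 118 and 148 and 144 in the same order of groups. The Srebf2 genotype groups overlapped in both cell types, and its differences were -0.02 in Tfh and -0.12 in Th1. Its other probe set was lower in WT Tfh than in WT Th1, with -0.43 (adjusted p = 0.0144).

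Insig2, the second INSIG gene, had 137 and 158 for Rictor-null Tfh, 136 and 127 for WT Tfh, 123 and 131 for Rictor-null Th1 and 134 and 133 for WT Th1. The SREBP escort gene Scap had 449 and 491, 453 and 468, 515 and 479 and 543 and 531 in that order. Both WT Th1 arrays were the highest for Scap, with a difference of -0.21 between WT Tfh and WT Th1 that did not pass (adjusted p = 0.0516). Array signals report transcripts, and SREBP activity depends on cleavage of the proteins, which was not measured.

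**Figure D2:**
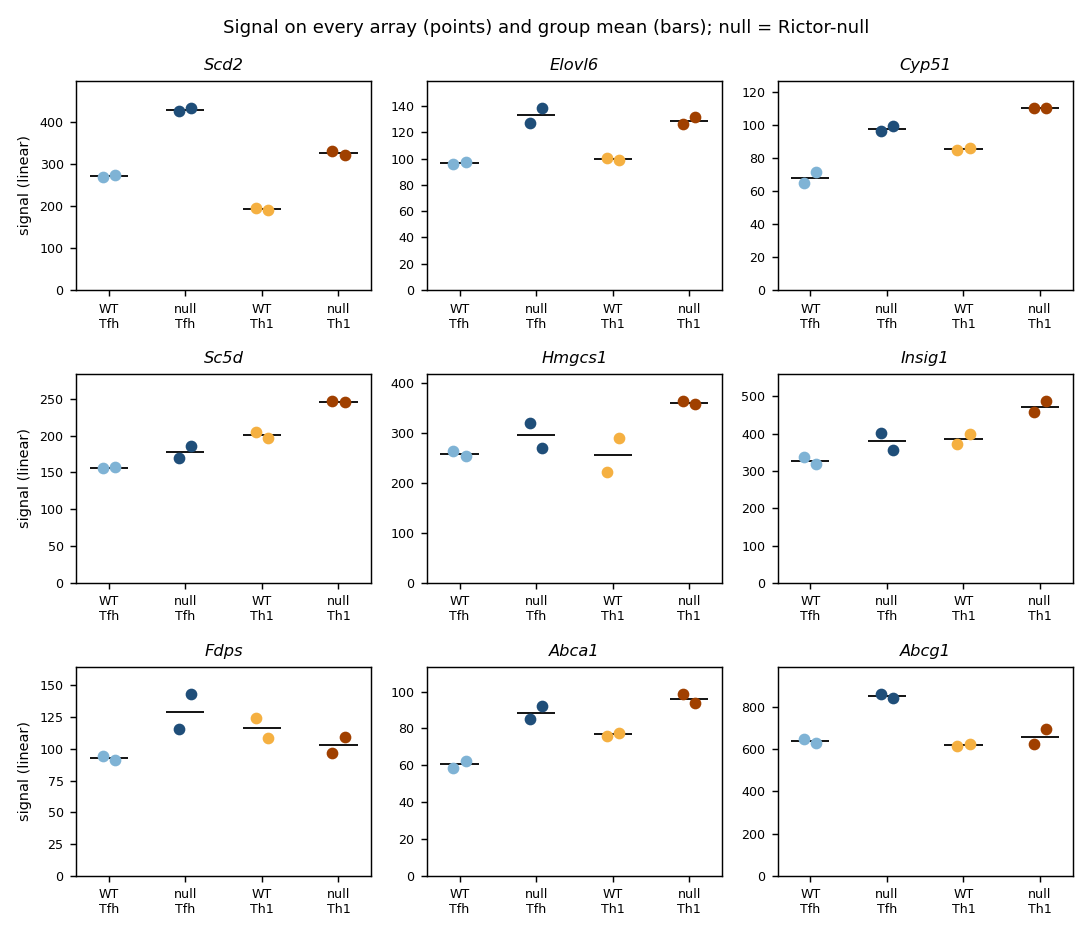
Signal on a linear scale (vertical axes, from 0) of 9 genes on every array. Points are arrays, bars are the means of the 2 arrays of a group, and the groups are WT Tfh, Rictor-null Tfh, WT Th1 and Rictor-null Th1. Scd2, Elovl6, Cyp51 and Abca1 are higher in Rictor-null than in WT in both cell types, Fdps and Abcg1 in Tfh cells, and Hmgcs1, Sc5d and Insig1 reach their highest signals in Rictor-null Th1.

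Acetyl-CoA for both pathways comes from citrate through ATP citrate lyase (Acly) or from acetate through Acss2, and Acaca and Fasn then build palmitate. In Th1 cells 7.54% of all genes rose. Acly rose in Th1 cells and was the 1 of 4 tested genes of this group to pass between genotypes. Its signals were 1592 and 1734 for Rictor-null Th1, 1125 and 1373 for WT Th1, 1855 and 1637 for Rictor-null Tfh and 1542 and 1427 for WT Tfh. WT Th1 was the low group and its 2 arrays differed from each other. The difference was 0.41 ± 0.0957 in Th1 cells (adjusted p = 0.0199) and 0.23 ± 0.0957 in Tfh (adjusted p = 0.138). Without WT Th1 replicate 1 the Th1 difference of Acly was 0.27 (adjusted p = 0.166). Acly's 2 other kept probe sets both rose in Rictor-null Tfh, by 0.69 (adjusted p = 0.00522) and 0.34 (adjusted p = 0.00628), and the second also in Rictor-null Th1, by 0.26 (adjusted p = 0.0197). The Tfh call for Acly thus depended on which probe set stands for the gene.

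Acss2 had 369.9 and 268 for Rictor-null Tfh, 430.1 and 384 for WT Tfh, 423 and 458 for Rictor-null Th1 and 429 and 500.2 for WT Th1. The lowest value, on Rictor-null Tfh replicate 2, was far below its partner. Acss2 was lower in Rictor-null Tfh than in Rictor-null Th1, with -0.44 ± 0.122 (adjusted p = 0.0442), and had -0.23 without that array (adjusted p = 0.182). Acaca, the acetyl-CoA carboxylase of fatty acid synthesis, and Fasn, the fatty acid synthase, had 0.20 and 0.20 in Tfh (adjusted p = 0.078 and 0.0934) and -0.07 and -0.01 in Th1 cells (adjusted p = 0.586 and 0.944).

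Scd2, which encodes a stearoyl-CoA desaturase that makes oleate, had the largest difference of the 34 genes in both genotype comparisons. Its signals were 425 and 432 for Rictor-null Tfh, 269 and 274 for WT Tfh, 331 and 320.3 for Rictor-null Th1 and 195 and 189 for WT Th1. The groups did not overlap, and arrays of 1 group lay close together. Scd2 rose by 0.60 ± 0.0547 or 1.52-fold on that scale in Tfh (adjusted p = 5.89e-05) and by 0.67 ± 0.0547 or 1.60-fold in Th1 cells (adjusted p = 2.2e-05). It was also higher in Tfh than in Th1 cells, by 0.44 in WT (adjusted p = 0.000956) and 0.36 in Rictor-null (adjusted p = 0.00221). The other kept Scd2 probe set was dim, with signals of 32.5 to 52.8, and had 0.15 in Tfh (adjusted p = 0.288) and 0.01 in Th1 (adjusted p = 0.975).

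Elovl6, the elongase that takes palmitate to stearate and so supplies the substrate of the desaturase, had 127 and 138 for Rictor-null Tfh, 96.0 and 97.6 for WT Tfh, 126 and 131 for Rictor-null Th1 and 100.5 and 98.7 for WT Th1. All 4 Rictor-null arrays lay above all 4 WT arrays. Elovl6 rose by 0.35 ± 0.0578 in Tfh (adjusted p = 0.00261) and by 0.29 ± 0.0578 in Th1 (adjusted p = 0.00895). Its second probe set rose by 0.38 and 0.28 in the same comparisons.

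Elovl5, an elongase of polyunsaturated fatty acids, had 2003 and 2160.3 for Rictor-null Tfh, 1798 and 1775 for WT Tfh, 2125 and 2145 for Rictor-null Th1 and 1972 and 1967 for WT Th1. The WT Tfh arrays were lowest and the genotypes did not overlap in either cell type. Elovl5 rose in Tfh cells by 0.22 ± 0.0577 (adjusted p = 0.0337) and had 0.11 in Th1 (adjusted p = 0.25). Its other probe set had the converse pattern, 0.04 in Tfh (adjusted p = 0.637) and a rise of 0.25 in Th1 (adjusted p = 0.0218). Elovl1, an elongase of very long saturated chains, passed in none of the comparisons.

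Fads1, the delta-5 desaturase of polyunsaturated fatty acids, was the 1 gene of the 34 to fall with the Rictor-null genotype. It had 57.1 and 60.1 for Rictor-null Tfh, 74.3 and 76.2 for WT Tfh, 50.4 and 48.5 for Rictor-null Th1 and 59.4 and 64.2 for WT Th1. In each cell type both Rictor-null arrays were below both WT arrays. Fads1 had -0.24 ± 0.0566 in Tfh (adjusted p = 0.0188) and -0.20 ± 0.0566 in Th1 (adjusted p = 0.0453). Its other probe set, of similar brightness, had the opposite sign, 0.17 and 0.07, and did not pass (adjusted p = 0.304 and 0.717). With the mean of both probe sets the differences were -0.04 (adjusted p = 0.71) and -0.07 (adjusted p = 0.546), so the fall rested on 1 probe set.

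Abca1 and Abcg1 encode the transporters that export cholesterol and are targets of the liver X receptors, which oxysterols activate. Abca1 had 85.0 and 92.2 for Rictor-null Tfh, 58.7 and 62.4 for WT Tfh, 98.6 and 93.7 for Rictor-null Th1 and 76.0 and 77.4 for WT Th1. WT Tfh was lowest, WT Th1 next, and all 4 Rictor-null arrays were above all 4 WT arrays. Abca1 rose by 0.38 ± 0.0585 in Tfh (adjusted p = 0.00181) and by 0.24 ± 0.0585 in Th1 (adjusted p = 0.0266), and was lower in WT Tfh than in WT Th1, with -0.23 (adjusted p = 0.028).

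Abcg1 had 862 and 844 for Rictor-null Tfh, 651 and 629 for WT Tfh, 626 and 694 for Rictor-null Th1 and 616 and 626 for WT Th1. Rictor-null Tfh stood above the other 6 arrays, and the Th1 genotypes differed little. Abcg1 rose in Tfh cells by 0.40 ± 0.0624 (adjusted p = 0.00211), had 0.08 in Th1 cells (adjusted p = 0.449), and was higher in Rictor-null Tfh than in Rictor-null Th1 by 0.36 (adjusted p = 0.0055). Its other probe set also rose in Tfh cells, by 0.36 (adjusted p = 0.011), but had -0.05 between the Rictor-null cell types. Stard4, a carrier of cholesterol between membranes, passed in none of the comparisons, with signals of 154.8 to 175 over all arrays, though another Stard4 probe set rose in Rictor-null Tfh, by 0.27 (adjusted p = 0.0322).

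**Figure D3:**
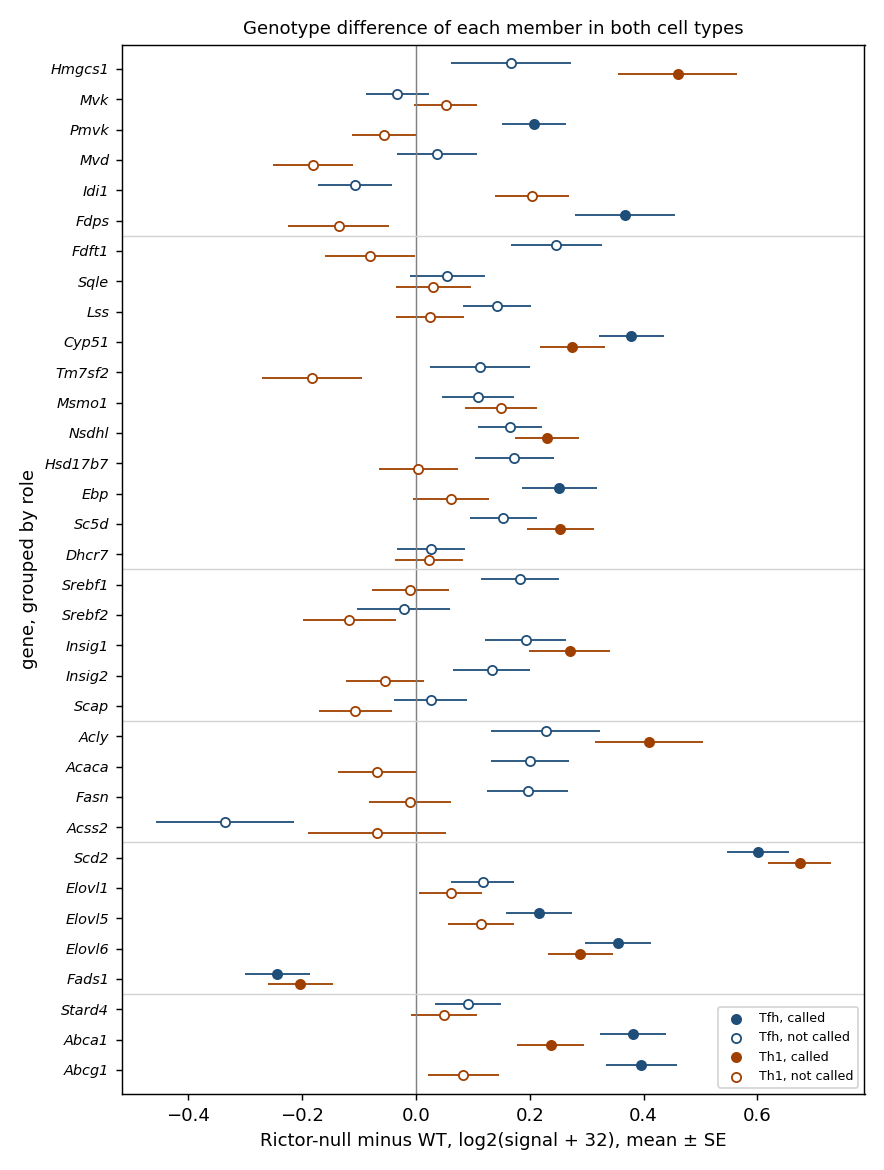
Rictor-null minus WT difference of log2(signal + 32) (horizontal axis) for the 34 genes in Tfh cells (blue) and Th1 cells (brown), with bars of 1 SE from limma. Filled points passed at adjusted p under 0.05. Scd2 lies farthest to the right in both cell types, at 0.60 and 0.67, and Fads1 is the 1 filled point to the left of 0 in either.

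Calls in the Tfh comparison for Scd2, Cyp51, Abca1, Abcg1 and Elovl6 were kept in all 20 alternative settings run, and those of Fdps, Ebp, Pmvk and Elovl5 were lost in 6, 9, 9 and 12 of them. Without Rictor-null Tfh replicate 2, Ebp had 0.18 (adjusted p = 0.16), Pmvk 0.19 (adjusted p = 0.118) and Elovl5 0.16 (adjusted p = 0.16). The number that rose was 5 without replicate 2 of Rictor-null Tfh or without either WT Tfh array, and 17 without Rictor-null Tfh replicate 1. In the Th1 comparison Scd2 was kept in all 20. The number that rose there was 2 without Rictor-null Th1 replicate 1 or WT Th1 replicate 1, 1 without Rictor-null Th1 replicate 2, 3 without WT Th1 replicate 2, and 6 without either WT Tfh array. Of the 9 that rose in Th1, Scd2 and Elovl6 kept the call without WT Th1 replicate 1. Besides Hmgcs1 and Acly, whose values are given above, Sc5d then had 0.28 (adjusted p = 0.0639), Cyp51 0.27 (adjusted p = 0.0727), Nsdhl 0.24 (adjusted p = 0.0913), Abca1 0.23 (adjusted p = 0.144) and Insig1 0.22 (adjusted p = 0.225). The fall of Fads1 was lost in both comparisons without either WT Tfh array, and in Th1 also without any of the 4 Th1 arrays. Without both arrays that stood apart on the third component, a setting chosen after the data were seen, 8 rose and 1 fell in Tfh and 9 rose and 1 fell in Th1.

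The scaling between arrays bears on the direction of calls over all genes. As deposited, 83.2% of the genes called in Tfh and 71.8% of those called in Th1 were higher in Rictor-null cells. After quantile normalization these shares were 63.2% and 55.6%, and after centring each array on its median 46.4% and 53.3%. The median of the 34 genes in Tfh cells was 0.17 as deposited, 0.10 after quantile normalization and 0.09 after centring. In Th1 cells the median changed sign, from 0.04 as deposited to -0.01 after quantile normalization. For cell types, the share of called genes that were higher in Tfh was 20.9% in WT and 33.8% in Rictor-null cells as deposited, 40.2% and 44.5% after quantile normalization, and 54.6% and 46.2% after centring.

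The comparisons of Tfh with Th1 cells use the same arrays as the genotype comparisons, so the values are not independent of them. In WT cells 2 of the 34 genes were higher in Tfh than in Th1 (Scd2 and Fads1) and 4 were lower (Sc5d, Cyp51, Abca1 and Pmvk), where 3.08% of all genes were higher and 11.6% lower (14.7% in either direction). The median of the 34 was -0.14, against -0.06 over all genes. Both WT Tfh arrays lay below both WT Th1 arrays for 23 of 34 genes, where 48.0% of all genes did, and above them for 5, where 19.7% did. Among the 11 enzymes from squalene to cholesterol 10 had both WT Tfh arrays below both WT Th1 arrays. The Tfh markers went the other way, with 6 of 8 higher in WT Tfh than in WT Th1. Of the list of CD8 T and NK cell markers, Eomes had signals of 833 to 1184 on the 4 Tfh arrays and 66.9 to 85.4 on the 4 Th1 arrays, while Ncr1 and Klra8 were below the filter. Cd8a (43.6 to 49.2 against 39.1 to 52.2) and Cd8b1 (43.3 to 62.5 against 52.8 to 56.9) overlapped between cell types. In WT cells Cd8b1 was lower on both Tfh arrays, with 45.2 and 43.3 against 54.0 and 56.0 in Th1. The summed signal of the B cell list was 507 to 562 on the Tfh arrays and 343 to 476 on the Th1 arrays. That gap lay mainly in Cd22, with 298 to 352 on the Tfh arrays and 133 to 246 on the Th1 arrays. Cd79b went the other way in each genotype, with 35.7 to 66.9 on the Tfh arrays and 47.2 to 80.6 on the Th1 arrays. Sdc1 was slightly higher in Tfh in each genotype. The sum therefore does not show a difference shared by the list. The part of these differences in those of the sterol and fatty acid genes was not tested.

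In Rictor-null cells 2 genes were higher in Tfh than in Th1 (Scd2 and Abcg1) and 5 were lower (Sc5d, Idi1, Insig1, Acss2 and Nsdhl), where 3.27% of all genes were higher and 6.40% lower (9.67% in either direction). The median of the 34 was 0.02, against -0.01 over all genes. Both Tfh arrays lay above both Th1 arrays for 9 genes and below them for 10, where 21.3% and 28.0% of all genes did. Scd2 and Sc5d passed in both genotypes and in the same direction, and Nsdhl had -0.20 with adjusted p = 0.0479.

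**Figure D4:**
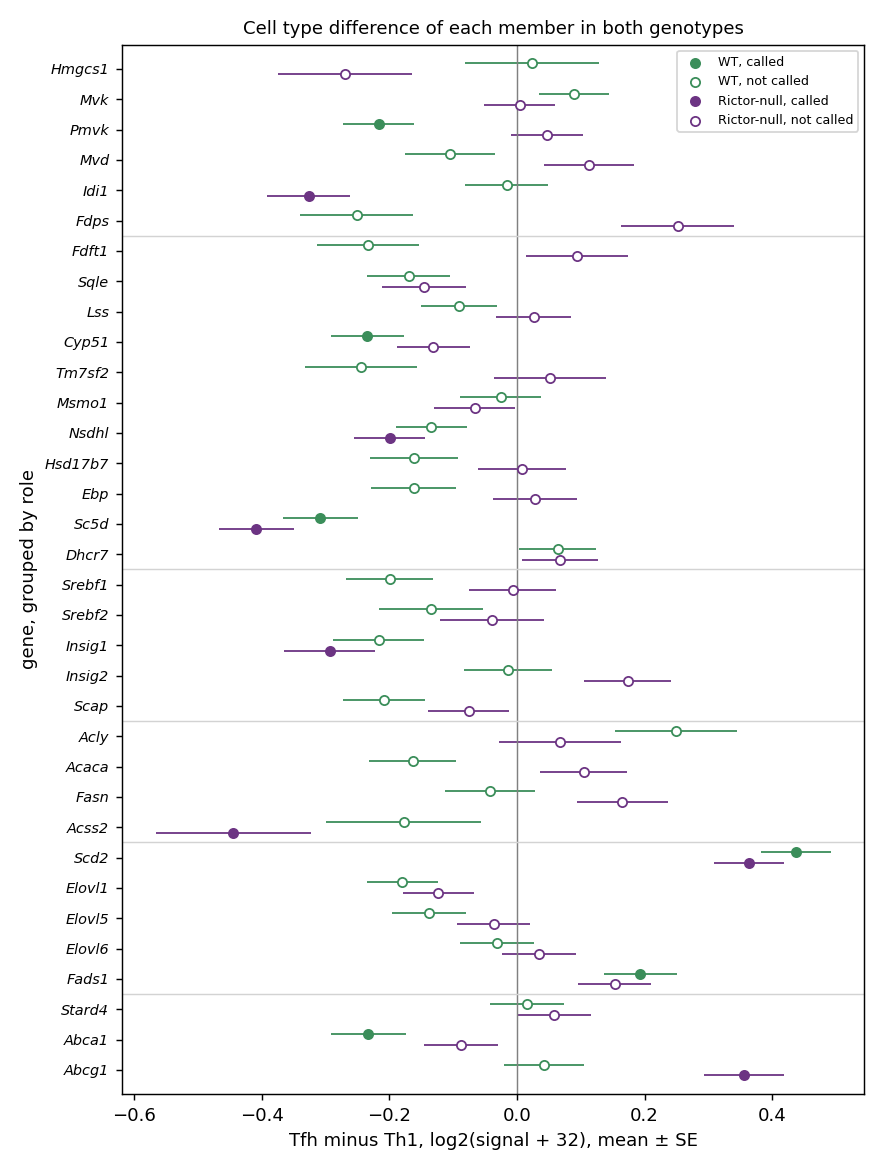
Tfh minus Th1 difference of log2(signal + 32) (horizontal axis) for the 34 genes in WT (green) and Rictor-null (purple) cells, with bars of 1 SE from limma and filled points at adjusted p under 0.05. Most WT points of the sterol genes lie left of 0, Sc5d lies at -0.31 and -0.41, and Scd2 lies at 0.44 and 0.36.

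Other probe sets differed in their calls between cell types. Those of Hmgcs1, Cyp51 and Elovl5 were lower in Rictor-null Tfh than in Rictor-null Th1, with -0.40 (adjusted p = 0.0215), -0.39 (adjusted p = 0.0151) and -0.24 (adjusted p = 0.0253), where the brightest did not pass. A probe set of Acly was higher, with 0.51 (adjusted p = 0.0195), and another of Acss2 was lower in WT Tfh than in WT Th1, with -0.38 (adjusted p = 0.0153). The Cyp51 call in WT cells was not shared by the second Cyp51 probe set, which had -0.10 (adjusted p = 0.424).

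Scd2 was called in both genotypes in all 20 alternative settings, as was Sc5d in Rictor-null cells. In WT cells the number of lower genes was 0 without WT Tfh replicate 1, WT Tfh replicate 2 or WT Th1 replicate 1, 1 without WT Th1 replicate 2, and 11 without either Rictor-null Tfh array. Without WT Th1 replicate 1, Sc5d had -0.28 (adjusted p = 0.0762), Cyp51 -0.24 (adjusted p = 0.113), Abca1 -0.24 (adjusted p = 0.115), Pmvk -0.19 (adjusted p = 0.17) and Fads1 0.16 (adjusted p = 0.238). In Rictor-null cells it was 1 without either Rictor-null Th1 array, and 2 without Rictor-null Tfh replicate 2 or either WT Tfh array, while the number of higher genes was 5 without Rictor-null Tfh replicate 1 and 1 without Rictor-null Th1 replicate 1. Without Rictor-null Tfh replicate 2, Insig1 had -0.21 (adjusted p = 0.116) and Nsdhl -0.21 (adjusted p = 0.0805), beside the value of Acss2 given above, and Nsdhl had -0.20 (adjusted p = 0.0672) without WT Th1 replicate 1.

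Whether the genotype difference itself differed between cell types was tested as an interaction. None of the 34 genes passed at adjusted p under 0.05 in limma, where 1.22% of all genes did, 0.829% with a more positive difference in Tfh and 0.392% with a more negative one. Of the 34, 7 had an unadjusted p under 0.05, 6 with a more positive difference in Tfh and 1 with a more negative one. The smallest adjusted p was that of Fdps, with 0.50 ± 0.125 (adjusted p = 0.0892). Abcg1 had 0.31 (adjusted p = 0.123), Idi1 -0.31 (adjusted p = 0.133) and Pmvk 0.26 (adjusted p = 0.136). Genes called in 1 cell type alone are therefore not shown to differ between cell types. Without Rictor-null Tfh replicate 1, 7 genes passed: Fdps (0.63), Fdft1 (0.45), Tm7sf2 (0.43), Acaca (0.35) and Fasn (0.31) with more positive differences in Tfh, and Acss2 (-0.48) and Idi1 (-0.34) with more negative ones. That fit leaves Rictor-null Tfh with replicate 2 alone, 1 of the arrays that stood apart, whose spread is then assumed to be that of the other groups.

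Over the 34 genes, the genotype differences in the 2 cell types correlated at r = 0.520, against 0.475 over all 11217 genes. This is a description across genes of the same arrays, and genes are not independent replicates. Both differences were positive for 19 genes (55.9%) and negative for 3 (8.82%), where 34.7% and 24.0% of all genes were. Another 10 (29.4%) were positive in Tfh and negative in Th1 and 2 (5.88%) the reverse, where 2918 and 1718 of all 11217 genes were. In the mean of the 2 genotype differences, 12 genes rose and 1 fell, where 13.1% of all genes rose and 3.92% fell (17.1% in either direction). The mean was positive for 28 of the 34, with a median of 0.09 against 0.02 over all genes. The share of all genes with a positive mean was not counted.

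Other genes of the same pathways were read from further lists. None of the 4 tested further steps of sterol synthesis (Ggps1, Lbr, Aacs and Erg28) passed in any comparison, with a smallest adjusted p of 0.0766 (Lbr in the Tfh genotype comparison). Of 12 genes of sterol uptake, storage and export, 2 rose in Rictor-null Tfh and 1 fell, where 11.3% and 2.28% of all genes did: Apoe, the lipoprotein that accepts exported cholesterol, rose by 0.54 (adjusted p = 0.000597), Mylip, a ligase that degrades the LDL receptor, rose by 0.21 (adjusted p = 0.0406), and the HDL receptor gene Scarb1 had -0.26 (adjusted p = 0.0303). In Rictor-null Th1 cells none of the 12 rose, and 2 genes of lysosomal cholesterol release fell, where 2.97% of all genes did, Npc2 with -0.37 (adjusted p = 0.0075) and Lipa with -0.29 (adjusted p = 0.0336). The genotype differences of Apoe and Npc2 differed between cell types, with interactions of 0.60 (adjusted p = 0.0176) and 0.48 (adjusted p = 0.0495). Between cell types, Abca7, a lipid transporter, was lower in Tfh, with -0.44 in WT and -0.28 in Rictor-null, Npc2 was lower in WT Tfh, with -0.25, and Apoe was higher in Rictor-null Tfh by 0.62.

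Of 10 genes of SREBP processing, 2 rose in Rictor-null Tfh and 3 in Rictor-null Th1, where 11.3% and 7.54% of all genes rose, and none fell. With so few genes, these shares are a description only. Lpin1, a phosphatidate phosphatase that also restrains nuclear SREBP, rose by 0.27 (adjusted p = 0.011) in Tfh and 0.23 (adjusted p = 0.0213) in Th1, and was higher in Tfh than in Th1 cells by 0.54 in WT and 0.58 in Rictor-null. Fbxw7, a ligase subunit that marks SREBPs for degradation, rose in Tfh by 0.22 (adjusted p = 0.039). Sec23a, a coat protein of the vesicles that carry SCAP and SREBP, rose in Th1 by 0.28 (adjusted p = 0.0117), and the ligase gene Rnf139 by 0.21 (adjusted p = 0.0495). Of 11 tested genes of fatty acid synthesis and activation, 1 (9.09%) rose in each genotype comparison. Over all genes, 11.3% rose in Tfh and 7.54% in Th1. Mid1ip1, which activates acetyl-CoA carboxylase, rose by 0.31 in Tfh (adjusted p = 0.0165) and 0.34 in Th1 (adjusted p = 0.00967). No other gene of that list passed in a comparison of 2 groups.

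The 3 genes below the filter stayed near background on every array. Acacb, the mitochondrial form of acetyl-CoA carboxylase, had signals of 23.7 to 34.1, the stearoyl-CoA desaturase gene Scd1 had 23.0 to 29.4, and Fads2, the delta-6 desaturase, had 24.6 to 33.5. Fitted without the filter, none of them passed in any comparison, with a smallest adjusted p of 0.117 for Acacb in the mean of the genotype differences.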

How the data were processed

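Total RNA of sorted memory CD4 T cells, pooled from at least 10 mice per array, was labelled and hybridised to 8 Affymetrix arrays, per the labels' protocols. The deposited values are probe set intensities on a linear scale, already summarised by the authors. MAS5 and RMA are named per the submitters' processing notes, without their roles or order, so the background correction and scaling behind each signal are not stated in the sources used here. Of 45037 probe sets, 34945 carried 1 gene symbol in the platform annotation, 932 several and 9160 none, and those with several or none were left out. No symbol needed updating.

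The members, lists and tests were chosen with earlier results of these data known. Signals were taken to log2(signal + 32). Probe sets brighter than the median of the array on 2 or more of the 8 arrays were kept, 23725 in all, of which 19671 had 1 symbol. The brightest stood for each gene, which gave 11217 genes. All groups were fitted together with lmFit and eBayes of limma 3.58.1 in R 4.3.3 (residual df 4, prior df 6.66), with Benjamini-Hochberg adjustment over all genes and a threshold of 0.05. The steps were tested on simulated data. Other probe sets were read from a fit over all 23725. Tables and plots used Python 3.11.15, pandas 2.3.3 and matplotlib 3.10.9. Values on every array are given for each gene called in any of 6 comparisons and for Srebf1, Srebf2, Insig1, Insig2 and Scap, and other lists are given by their called genes with the smallest p, up to 4 per list and comparison. In 20 alternatives the scaling, pseudocount, filter, probe set rule, weights, block or arrays were changed. The 2 arrays per group limit the precision of every value.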

Additional observations from a re-analysis of the deposited data

How the results depend on the processing

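Of 46 called results of single genes, 17 kept their call in every setting and none changed sign. Over 907 values, 706 kept direction and call and 201 lost the call. The counts and medians moved more often, and the cause was not tested except where fewer arrays were fitted. In what follows WT and Rictor-null, without a cell type, stand for the Tfh against Th1 comparisons in those cells.

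After quantile normalization the median was 0.10 in the Tfh genotype comparison, -0.0072 in Th1, -0.083 in WT and 0.036 in the mean of genotype differences. In the same setting 0 genes of the list fell in Th1, 2 in WT and 3 in Rictor-null, with 1008 of all genes called in WT. After median centring 5 of the list rose in Tfh, 1 fell in WT and 2 in Rictor-null, and the medians were 0.090 in Tfh, -0.068 in WT, 0.054 for the interaction and 0.034 for the mean. Without the filter 3 fell in Rictor-null and 65 genes had an interaction. With a pseudocount of 1, 2 fell in Rictor-null and 73 genes had an interaction. With a pseudocount 4 times the main value of 32 the medians were 0.10 in Tfh, -0.089 in WT and 0.054 for the interaction, 0 fell in Th1, 1 rose in WT and 83 genes had an interaction. With the mean of a gene's probe sets 0 fell in either genotype comparison, 1 rose in WT and 7 fell. Array weights gave 3175 genes and 13 of the list fallen in WT, and 661 and 2 in Rictor-null. Fitting only the 4 arrays compared gave 939 genes in Tfh, 0 of the list fallen in Th1, 2591 genes and 11 fallen in WT, and 589 and 2 in Rictor-null. Without both arrays that stood apart (Rictor-null Tfh replicate 2, WT Th1 replicate 1), added after seeing the data, the medians were 0.10 in Tfh, -0.050 in Rictor-null and 0.060 for the interaction, 1 rose in WT and 2 fell in Rictor-null.

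With the replicate number as a block, 0 fell in Th1, 1 rose and 2 fell in WT with 995 genes called, 2 fell in Rictor-null and 91 genes had an interaction. Deviations of same-numbered arrays correlated at -0.515 to 0.277. With 2 arrays per group these values do not settle whether any samples were paired.

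Leaving out 1 array at a time gave 457 to 2846 genes in Tfh, with 5 to 17 of the list risen, 0 to 2 fallen and medians of 0.10 to 0.20. In Th1 it gave 579 to 1776 genes, 1 to 10 risen, 0 to 1 fallen and medians of 0.0096 to 0.05. In WT it gave 194 to 2674 genes, 1 to 2 risen, 0 to 11 fallen and medians of -0.15 to -0.12. In Rictor-null it gave 398 to 1665 genes, 1 to 5 risen, 1 to 5 fallen and medians of -0.050 to 0.063. For the interaction it gave 27 to 1620 genes, 0 to 5 risen, 0 to 2 fallen and medians of 0.058 to 0.12, and for the mean 1029 to 2440 genes, 8 to 15 risen, 1 to 2 fallen and medians of 0.058 to 0.13. A group left with 1 array is assumed to vary like the others.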
